A study of Mus musculus with 8 samples.

Results

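Axon guidance genes encode the secreted and membrane-bound cues that steer growing nerve fibres, and the receptors through which a growth cone reads them. In the tongue bud, the embryonic tissue that becomes the tongue, these genes were taken from the array by symbol: semaphorins with their plexin and neuropilin receptors, Slits with Robos, netrins with Dcc and Unc5 receptors, and ephrins with Eph receptors. They made up 67 of the 18193 genes that a probe set assigned to no other gene measured, 35 of them ligands and 32 receptors, and each was represented by its probe set with the highest mean over the 8 arrays. Of 68 RefSeq genes whose symbols fit these families, only Ephb2 was not analysed here.

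RNA came from tongue buds of C57BL/6J mouse embryos at embryonic day 13.5, hybridised to one-colour Affymetrix arrays, with 4 control and 4 mutant samples. Every embryo was homozygous for a floxed allele of Alk5, which encodes a type I TGF-beta receptor (symbol Tgfbr1), so controls were Alk5 fl/fl. Mutants carried Wnt1-Cre in addition, which expresses Cre recombinase under Wnt1 control in cells that form the cranial neural crest. Muscle precursors, endothelium and epithelium of the bud do not descend from those cells and keep an intact receptor gene. No group carried Wnt1-Cre without the floxed alleles, so what the transgene does by itself and what loss of the receptor does cannot be told apart. The study asked how neural crest cells lacking this receptor affect their interaction with the myogenic precursors of craniofacial muscle.

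Semaphorins bind plexins, which restrain the cytoskeleton of the growth cone, and the secreted class 3 members mostly do so through neuropilins as co-receptors. Slits repel fibres through Robos, netrins attract through Dcc and repel through Unc5 receptors, and ephrins act between touching cells, with signals running both into the Eph-bearing and the ephrin-bearing cell. The same molecules guide blood vessels and migrating neural crest cells. The motor axons that enter the tongue have their cell bodies in the hindbrain, outside the dissected tissue, so receptor transcripts of those neurons are largely outside this sample.

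The deposited values are log2 expression, so a difference of 1 is a doubling of signal. Array medians lay between 5.96 and 6.01. Samples are numbered tongue buds, and nothing in the labels says that they came from separate litters, so p-values set the genotype difference against the spread between these samples. Tgfbr1 read 11.89 to 12.12 on controls and 12.36 to 12.42 on mutants. The sources used here do not place its probes relative to the floxed part, so it checks neither the deletion nor the labels. Directions are therefore those of the library labels.

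Of the 67 guidance genes, 7 rose and 6 fell in mutants at an adjusted p of 0.05 in limma (Benjamini-Hochberg over all 18193 genes), which is 19.4% of them. Over all genes tested 9.72% passed, 4.2% higher and 5.52% lower. The guidance genes were brighter than the genes at large: 9 of 67 had both group means below the array medians, against 5844 of 18193. With genes of a mean under 6 left out, 17.4% of the remaining 12125 genes passed, and 58 guidance genes remained. The part of brightness in the difference between these shares was not tested. The genes that fell were the ligands Sema3e, Slit2, Sema3c and Sema3b and the receptors Epha5 and Plxnb3. Those that rose were the ligands Sema6a, Sema3a, Efnb3 and Efna4 and the receptors Plxnd1, Unc5b and Ephb3. The 19.4% and the 17.4% come from different fits. With genes of a mean under 6 left out, Epha5 was not tested, the other called genes kept their calls and Sema4c passed too. The median log2 change was 0.02 over the 67 genes and −0.01 over all genes, with a median absolute change of 0.13 against 0.09. No called guidance gene changed 2-fold: the falls reached 1.72-fold and the rises 1.44-fold. Without control 2 or without mutant 2, 8 of the 67 passed, and without control 2, control 3 or mutant 2 only 4 of them were higher.

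**Figure D1:**
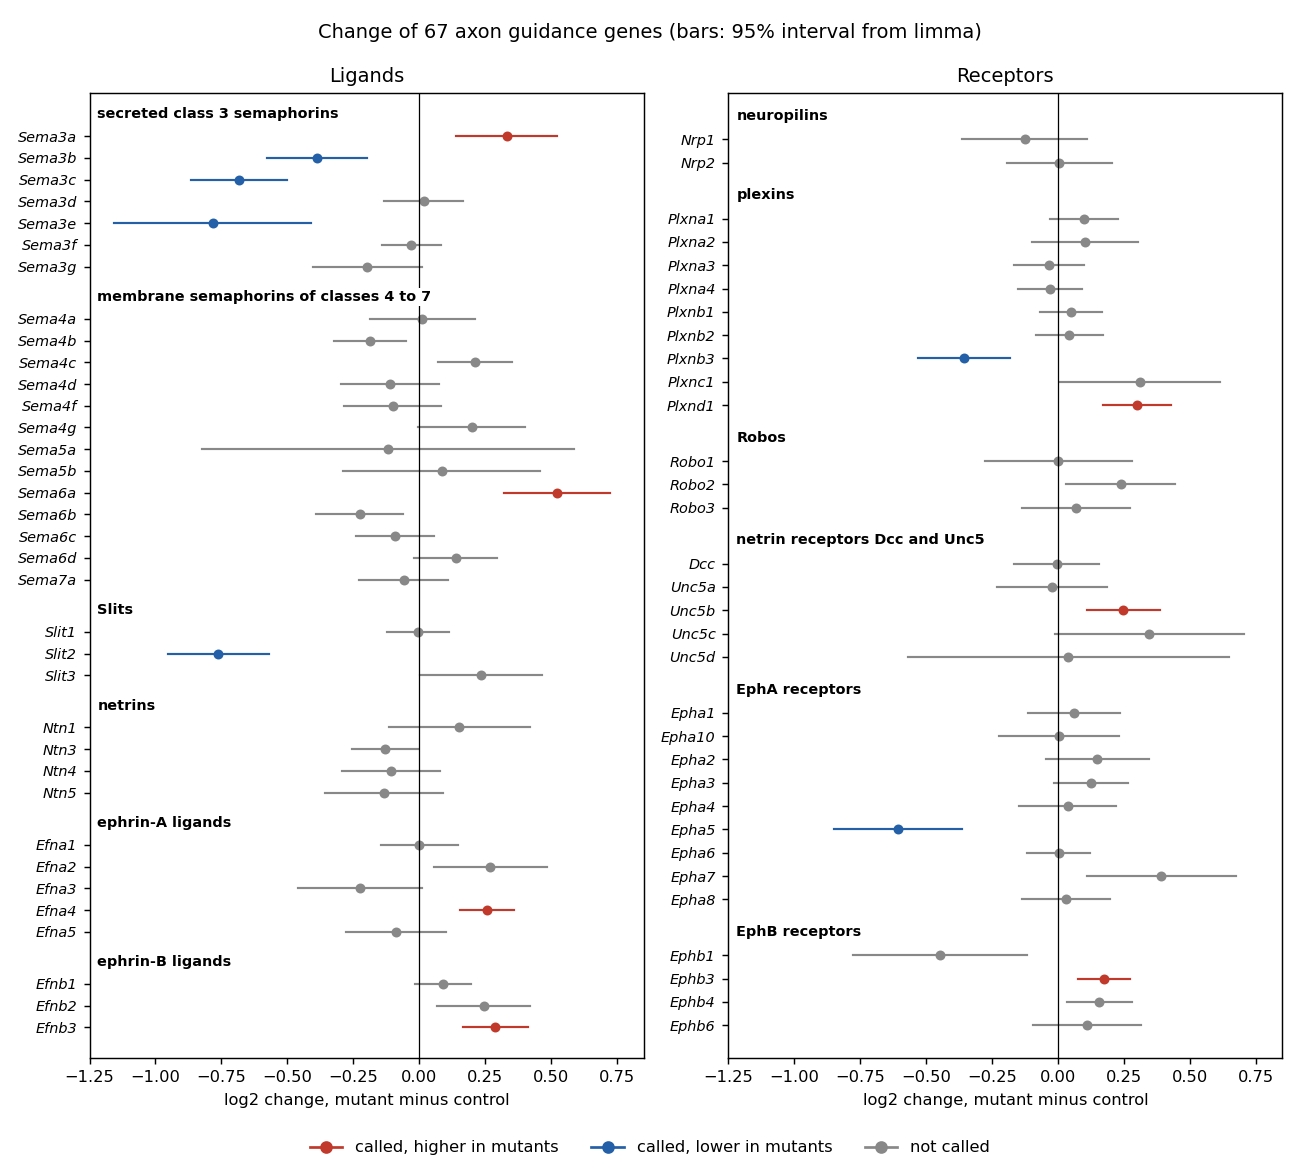
The log2 change of all 67 guidance genes (x axis, mutant minus control), with ligands on the left and receptors on the right, grouped by family. Points are limma estimates and bars their 95% intervals; red marks the 7 genes called higher, blue the 6 called lower and grey the 54 not called.

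The clearest changes were falls of secreted ligands. Slit2, the repellent bound by Robo receptors, read 10.61, 10.55, 10.39 and 10.81 in the controls (numbers 1 to 4, in this order here and for every gene) and 9.74, 9.89, 9.87 and 9.81 in the mutants. All mutant values lay below all control values, with a gap of 0.49 between the groups. The mean went from 10.59 ± 0.18 to 9.83 ± 0.067 (SD, n = 4 in both groups), which is a log2 change of −0.76 (SE 0.0854, limma adjusted p = 0.000876) or 1.7-fold lower. Of the 3 probe sets of Slit2, all were lower, and a second one passed over all probe sets (1451430_at, −0.50, limma adjusted p = 0.0116). The other Slits did not pass. Slit1 differed by −0.0050, with a 95% interval from −0.12 to 0.11. Slit3 differed by 0.23 and passed only without mutant 4 among the 17 alternatives (0.33).

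Class 3 semaphorins, the secreted ones, moved in both directions: of 7 measured, 3 fell and 1 rose, with a median log2 change of −0.20. That is 57.1% of a family of 7, against 9.72% over all genes. Sema3c, known for guiding neural crest cells into the heart outflow tract, read 10.78, 10.83, 10.62 and 10.99 on controls and 10.06, 10.25, 10.10 and 10.09 on mutants. The groups were parted by 0.37. Its log2 change of −0.68 (SE 0.0806, limma adjusted p = 0.00112) was 1.61-fold lower, and its other probe set, 1420696_at, differed by −0.40 and passed (limma adjusted p = 0.049).

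Sema3e, a ligand that binds plexin D1 without a neuropilin and repels vessels, read 7.06, 6.96, 6.22 and 6.53 on controls and 5.87, 6.04, 5.91 and 5.81 on mutants. Controls 3 and 4 lay nearer to the mutants than controls 1 and 2 did, and the groups still did not overlap. The log2 change was −0.78 (SE 0.166, limma adjusted p = 0.0177). All 4 probe sets of Sema3e were lower and 3 of them passed. The call was lost without control 2 (−0.69, limma adjusted p = 0.0519) and without mutant 4 (−0.75, 0.0544), and the change reached −0.94 without control 3.

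Sema3b, a repellent that also signals through neuropilins, read 6.43, 6.65, 6.35 and 6.41 on controls against 6.26, 5.97, 5.99 and 6.06 on mutants. Mutant 1 lay closest to the controls, 0.085 below the lowest of them. The log2 change was −0.39 (SE 0.0849, limma adjusted p = 0.0207). It did not pass without mutant 2 (−0.35), mutant 3 (−0.36) or mutant 4 (−0.38), and of its other probe sets, −0.30 and −0.03, neither passed.

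Sema3a, the classical collapsing cue for growth cones, went the other way. It read 10.15, 9.77, 9.81 and 9.83 on controls and 10.20, 10.23, 10.31 and 10.14 on mutants. Control 1 stood above the other controls and just above mutant 4, so the groups overlapped. The log2 change was 0.33 (SE 0.0846, limma adjusted p = 0.0391), and 0.42 without control 1. The call was lost in each of the other 7 fits that omit 1 array (0.29 to 0.36). Both dimmer probe sets were higher, by 0.38 and 0.40, without passing.

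Sema3d, Sema3f and Sema3g did not pass, with log2 changes of 0.02, −0.03 and −0.20. The 95% intervals were −0.13 to 0.17 for Sema3d and −0.14 to 0.08 for Sema3f. For the signal of these sets they leave no room for changes of the size seen in Sema3c. The Sema3f set is an x_at set, whose probes can match other transcripts. Its other sets differed by −0.10 and 0.01 without passing.

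The bases upstream of the start are shown for the ligands with the largest falls, Slit2, Sema3c and Sema3e, and for Sema3a, the class 3 member that rose, since these secreted cues moved in opposite directions. Each line gives the 250 bases before the start in RefSeq, build GRCm38.p6, plus strand, and capitals mark CAGAC, the core of the element bound by SMAD proteins of the TGF-beta pathway, on either strand (CAGAC or GTCTG). The windows are chr5:47982905-47983154 for Slit2, chr5:17574566-17574815 for Sema3c, chr5:14025026-14025275 for Sema3e and chr5:13396534-13396783 for Sema3a.
Slit2: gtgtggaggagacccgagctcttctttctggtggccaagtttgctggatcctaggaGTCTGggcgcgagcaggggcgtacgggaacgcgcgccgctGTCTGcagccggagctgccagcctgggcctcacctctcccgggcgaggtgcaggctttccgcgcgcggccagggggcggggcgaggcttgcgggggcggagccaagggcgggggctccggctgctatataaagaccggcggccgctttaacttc
Sema3c: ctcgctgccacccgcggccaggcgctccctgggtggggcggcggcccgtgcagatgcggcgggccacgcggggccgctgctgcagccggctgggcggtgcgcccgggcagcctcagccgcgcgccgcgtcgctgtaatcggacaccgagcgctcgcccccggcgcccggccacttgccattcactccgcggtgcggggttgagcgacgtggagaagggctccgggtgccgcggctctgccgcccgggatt
Sema3e: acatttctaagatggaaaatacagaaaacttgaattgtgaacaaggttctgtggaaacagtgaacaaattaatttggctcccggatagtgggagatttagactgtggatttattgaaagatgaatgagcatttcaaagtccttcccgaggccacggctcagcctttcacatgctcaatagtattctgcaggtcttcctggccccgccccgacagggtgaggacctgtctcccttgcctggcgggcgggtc
Sema3a: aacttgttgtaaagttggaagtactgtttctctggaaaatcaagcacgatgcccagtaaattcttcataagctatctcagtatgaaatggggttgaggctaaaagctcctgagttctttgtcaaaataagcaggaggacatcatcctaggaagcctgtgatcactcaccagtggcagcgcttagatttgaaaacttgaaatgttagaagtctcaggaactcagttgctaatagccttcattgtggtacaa
Slit2 held 2 matches, starting 194 and 154 bases before the start, and the windows of Sema3c, Sema3e and Sema3a held 0. The G and C content was 69.6% for Slit2, 78.4% for Sema3c, 48.0% for Sema3e and 40.8% for Sema3a. Of 32851 promoter windows, 42.2% held this motif, and of 73 windows of 57 guidance genes 50.7% did. Among called genes with a window, 1 of 5 that fell (Slit2) and 1 of 5 that rose (Ephb3) held it. The E-box CAGCTG, read on both strands and bound by myogenic factors such as MyoD, was in 13.0% of all windows and 15.1% of guidance gene windows, among them Plxnb3 and Ephb3 of the called genes. A window with both motifs, such as that of Ephb3, counts for each, and a match describes the sequence only.

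**Figure D2:**
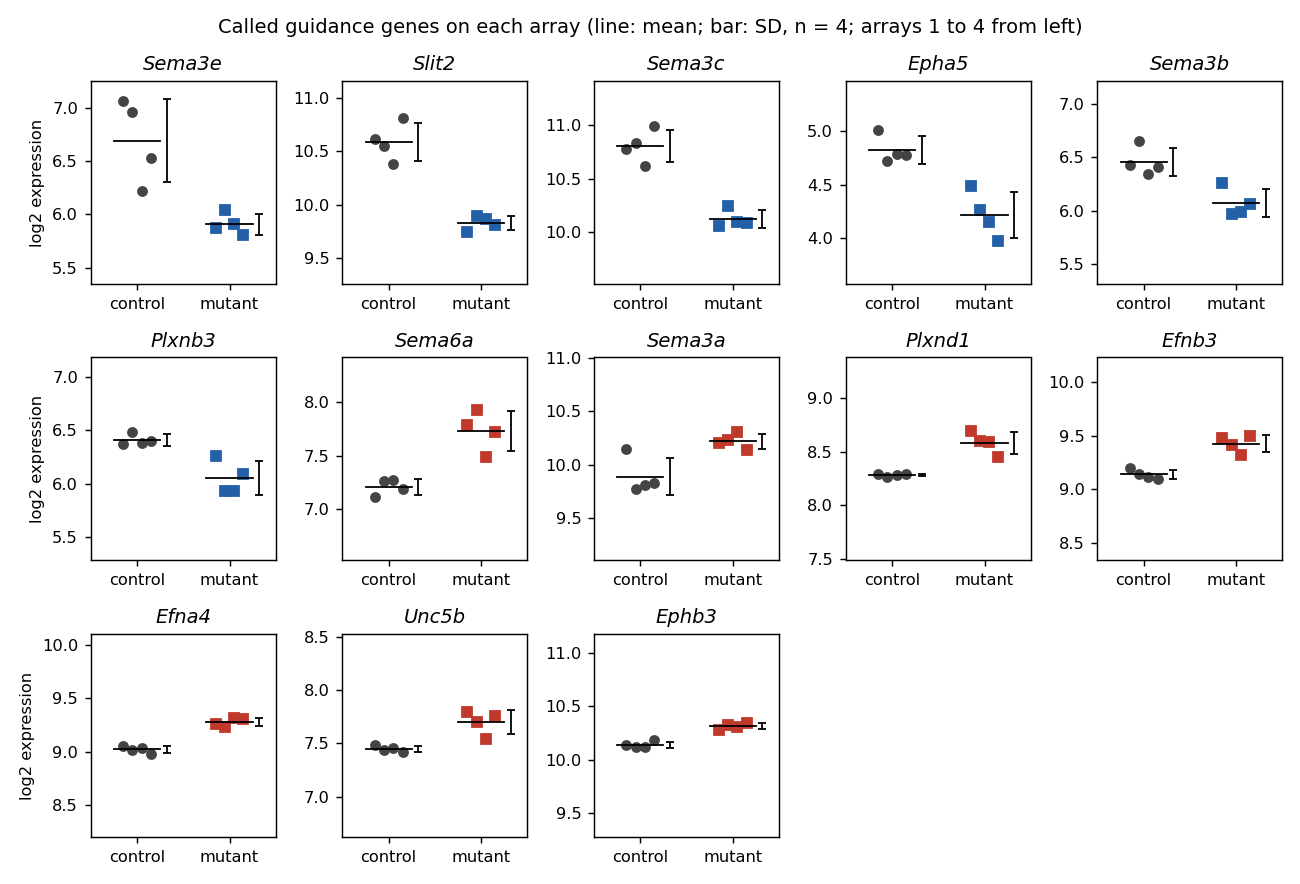
The log2 expression of the 13 called guidance genes on each array (y axis), in a panel per gene all drawn over the same span, controls as circles and mutants as squares in order 1 to 4. Lines are group means and bars the SD of 4 arrays; the groups are apart in every panel but that of Sema3a, where control 1 lies above mutant 4.

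Membrane-bound semaphorins of classes 4 to 7 passed in 1 of 13 cases (7.69%, against 9.72% over all genes). Sema6a, a transmembrane ligand of plexins A2 and A4, read 7.11, 7.26, 7.27 and 7.19 on controls and 7.79, 7.93, 7.49 and 7.72 on mutants. Mutant 3 was the lowest of its group and still 0.22 above the highest control. The mean went from 7.21 ± 0.072 to 7.73 ± 0.18 (SD, n = 4 in both groups), which is a log2 change of 0.52 (SE 0.0887, limma adjusted p = 0.00623) or 1.44-fold higher. Its dimmer sets differed by 0.25 and 0.01 and did not pass.

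Sema4c, a ligand of plexin B2, differed by 0.21 without passing (limma adjusted p = 0.0647), although its mutant values of 9.06 to 9.15 lay above its control values of 8.74 to 8.99. It passed with dim genes left out (limma adjusted p = 0.0392). Sema4b, at −0.19 (limma adjusted p = 0.0898), also had groups that did not overlap. Sema6b differed by −0.23, and passed without control 1 (−0.29, limma adjusted p = 0.0262).

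For Sema4f the answer depended on the probe set. Its 2 sets had nearly equal means over the 8 arrays, 6.30 for 1419328_at and 6.25 for 1439768_x_at. The first, which represents the gene by the rule, differed by −0.10 (limma adjusted p = 0.506). The other read 6.42 to 6.86 on controls and 5.52 to 6.00 on mutants, a log2 change of −0.88 (SE 0.129, limma adjusted p = 0.00542 over all probe sets). Its x_at suffix marks probes that can match other transcripts.

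Sema5a had the widest spread of all the guidance genes among controls. Its brightest set ran from 8.51 to 9.90 on controls and from 8.46 to 9.47 on mutants, and the change of −0.12 has a 95% interval from −0.82 to 0.59. A much dimmer set, 1422167_at, ran from 4.41 to 4.72 against 4.09 to 4.22 and passed (−0.38, limma adjusted p = 0.0221 over all probe sets). The remaining class 4 to 7 genes, Sema4a, Sema4d, Sema4g, Sema5b, Sema6c, Sema6d and Sema7a, differed by −0.11 to 0.20 and did not pass.

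Among the receptors of semaphorins, 2 of 9 plexins passed (22.2%, against 9.72% over all genes) and neither neuropilin did. Plxnd1, the receptor of Sema3e and best known from endothelium, read 8.29, 8.27, 8.28 and 8.29 on controls and 8.69, 8.60, 8.59 and 8.45 on mutants. Controls lay close together (SD 0.012), and mutant 4, the lowest mutant, was 0.16 above them. The log2 change was 0.30 (SE 0.0572, limma adjusted p = 0.0108). Its ligand Sema3e thus differed in the opposite direction, −0.78, on the same arrays. The Plxnd1 call was lost without controls 1 and 3 together (0.30, limma adjusted p = 0.0613), and also with replicate number as a block.

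Plxnb3, a receptor of Sema5a, read 6.37, 6.49, 6.39 and 6.40 on controls and 6.26, 5.93, 5.93 and 6.09 on mutants, with no overlap. The log2 change was −0.36 (SE 0.0778, limma adjusted p = 0.0203). It was measured by an s_at probe set, whose probes can match related transcripts; with such sets left out it was −0.27 (limma adjusted p = 0.203). The call was also lost without control 2 (−0.33), mutant 2 (−0.32) or mutant 3 (−0.32). Leaving out both control 1 and control 3 gave −0.39 (limma adjusted p = 0.0707).

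Nrp1, the neuropilin that carries Sema3a signals and also binds VEGF, ran from 11.59 to 12.06 on controls and from 11.53 to 11.78 on mutants, a difference of −0.13 with a 95% interval from −0.36 to 0.11. Nrp2, which prefers Sema3f and Sema3c, differed by 0.00 (−0.19 to 0.20). The remaining plexins, Plxna1, Plxna2, Plxna3, Plxna4, Plxnb1, Plxnb2 and Plxnc1, differed by −0.03 to 0.31. Plxnc1, the receptor of Sema7a, had the largest of these differences (0.31, limma adjusted p = 0.201).

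No Robo of 3 passed. Robo1 ran from 11.07 to 11.66 on controls and from 11.15 to 11.48 on mutants, and its difference of 0.00 has a 95% interval from −0.28 to 0.28. Robo2 differed by 0.24, with a 95% interval from 0.03 to 0.44 that leaves out 0 but an adjusted p of 0.15 in limma, and Robo3 by 0.07. Both genes had group means below the array medians, at 3.72 and 3.96 and at 4.17 and 4.23.

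No netrin of 4 passed in limma, and 1 (Ntn3) had an unadjusted p under 0.05. Ntn1, the main secreted netrin, ran from 8.58 to 8.82 on controls and from 8.49 to 9.07 on mutants (0.15, 95% interval −0.12 to 0.42). Ntn3, Ntn4 and Ntn5 differed by −0.13, −0.11 and −0.13. Dcc, the attractive netrin receptor, differed by −0.01 at means of 5.86 and 5.85, below the array medians.

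Of the repulsive netrin receptors, Unc5b, which is also found on vessels, passed. It read 7.49, 7.44, 7.45 and 7.42 on controls and 7.80, 7.70, 7.54 and 7.76 on mutants. Mutant 3 was 0.053 above the highest control, and the log2 change was 0.25 (SE 0.0616, limma adjusted p = 0.0351). The call was lost in 7 of the 8 fits that omit 1 array, all but the one without mutant 3 (0.21 to 0.30 over the 8). Unc5c differed by 0.35, more than Unc5b, but its controls spread from 8.25 to 8.96 and it did not pass (limma adjusted p = 0.225). Unc5d had the widest spread among mutants, 4.86 to 6.22, and a 95% interval from −0.57 to 0.65. Unc5a differed by −0.02.

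Of 8 ephrins 2 rose (25% called, against 9.72% over all genes). Efnb3, a transmembrane ephrin of the midline that halts crossing axons, read 9.20, 9.14, 9.11 and 9.10 on controls and 9.48, 9.41, 9.32 and 9.49 on mutants. The groups were 0.12 apart, with a log2 change of 0.29 (SE 0.0547, limma adjusted p = 0.0104). Efna4, a ligand held in the membrane by a lipid anchor, read 9.06, 9.02, 9.04 and 8.98 on controls and 9.26, 9.24, 9.32 and 9.31 on mutants. Its groups were 0.18 apart, and its SDs of 0.032 and 0.04 were small beside its log2 change of 0.26 (SE 0.0454, limma adjusted p = 0.00769). The Efna4 call was lost with replicate number as a block (limma adjusted p = 0.0571). Efna4 and Efnb3 have a single probe set each.

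Efnb2, a ligand that marks arterial endothelium, differed by 0.24 and did not pass (limma adjusted p = 0.0888), but did without control 1 (0.30). Efnb1, whose mutant values of 9.09 to 9.10 lay above controls of 8.92 to 9.05, differed by 0.09 (limma adjusted p = 0.281). Efna2 differed by 0.27 on its brightest set (limma adjusted p = 0.117), while its dimmer set, 1417521_at, passed over all probe sets at 0.32 (0.0323). Efna3 differed by −0.22 and passed without control 1 (−0.33). Efna1 (0.00) and Efna5 (−0.09) did not pass.

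Of 13 Eph receptors, 1 rose and 1 fell (15.4% called, against 9.72% over all genes). Epha5, a receptor of ephrin-A ligands typical of neurons, read 5.01, 4.72, 4.79 and 4.78 on controls and 4.49, 4.26, 4.15 and 3.97 on mutants. All mutants were at least 0.23 below the lowest control, and the log2 change was −0.61 (SE 0.108, limma adjusted p = 0.00795). Both group means are under the medians of the arrays, so the fold of 1.52 is one of dim signal, without a detection call. Its 3 other probe sets differed by −0.12 to −0.36 without passing. Without controls 1 and 3 together the call was lost (−0.53, limma adjusted p = 0.0569).

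Ephb3, a receptor of ephrin-B ligands known from palate and gut epithelium, read 10.14, 10.11, 10.12 and 10.18 on controls and 10.28, 10.33, 10.31 and 10.34 on mutants. The log2 change of 0.17 (SE 0.0437, limma adjusted p = 0.0361) is the smallest called here, and it rests on SDs of 0.03 and 0.028. The call was lost in 7 of the 8 fits that omit 1 array, all but that without control 4 (0.16 to 0.19 over the 8).

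Epha7 differed by 0.39 without passing (limma adjusted p = 0.0865), with control 1 at 11.42 and mutant 1 at 11.21 inside the range of the other group. It passed without control 1 (0.50) and without mutant 1 (0.48). A second set of Epha7, 1443485_at, ran from 10.23 to 10.50 on controls and from 10.61 to 10.80 on mutants and passed over all probe sets (0.31, limma adjusted p = 0.0347). Ephb1 differed by −0.45, as much as several called genes, with mutants from 6.98 to 7.61 against controls from 7.50 to 7.95 (limma adjusted p = 0.0939). Ephb4, the venous partner of Efnb2, differed by 0.16 (0.113) and Ephb6 by 0.11. Epha1, Epha2, Epha3, Epha4, Epha6, Epha8 and Epha10 differed by 0.00 to 0.15 and did not pass.

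**Figure D3:**
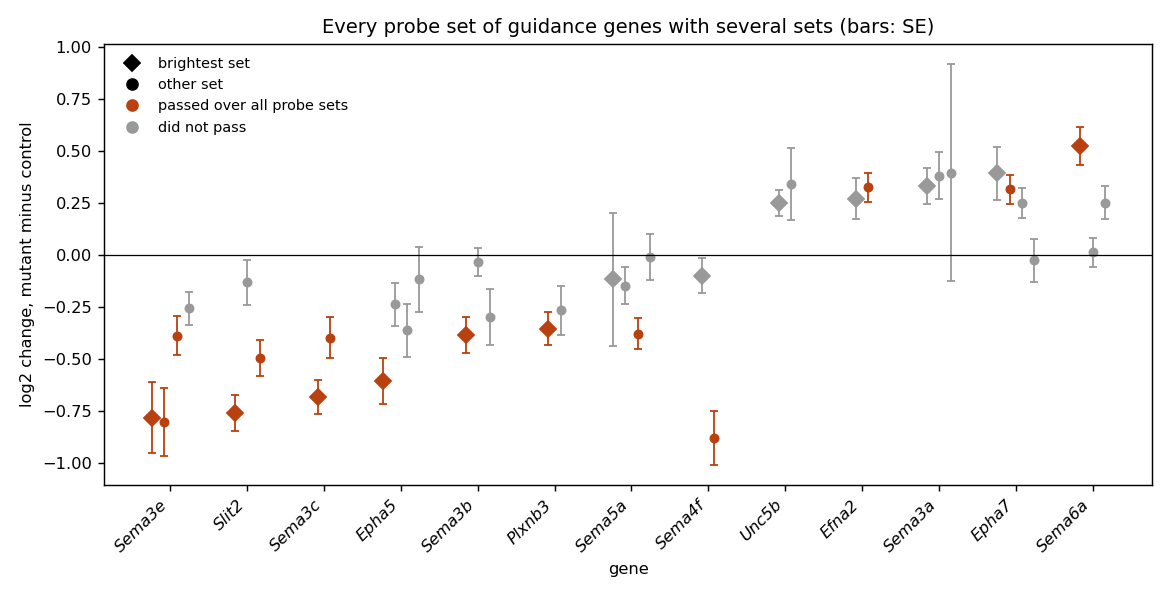
The log2 change (y axis, mutant minus control, bars SE) of every probe set of the 13 guidance genes that have several sets and either were called or had a set that passed. Diamonds are the brightest sets, orange marks sets that passed over all 34945 probe sets, and the brightest and the other set of Sema4f lie at −0.10 and −0.88.

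The 67 genes were covered by 150 probe sets. Over all 34945 probe sets naming 1 gene 5.94% passed. Of the 9 called genes with several sets, all sets pointed the same way in all 9, and more than 1 set passed in 3, Sema3e, Slit2 and Sema3c. The brightest sets of Sema3a, Unc5b and Ephb3 did not pass when adjusted over all probe sets. Among genes not called, 4 had another set that passed: Sema4f, Sema5a, Efna2 and Epha7. Across all 45 genes with several sets, 29 had every set in the direction of the brightest.

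In 15 of the 67 genes the groups did not overlap, 8 with mutants higher and 7 with mutants lower. Over all genes 17.8% did not overlap, 8.92% higher and 8.87% lower. These were 12 of the 13 called genes, all but Sema3a, together with Sema4b, Sema4c and Efnb1. Of the 35 ligands 4 rose and 4 fell (22.9%), with a median log2 change of −0.03. Of the 32 receptors 3 rose and 2 fell (15.6%), with a median of 0.05. The share called over all genes was 9.72%.

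Other guidance genes outside these families, from a list of cues and co-receptors, passed in 4 of 24 measured cases (16.7%), 3 higher and 1 lower (median log2 change −0.01). Over all genes 9.72% passed in the same fit. The 17.4% with dim genes left out comes from another fit, so it is not a like share for this list. Flrt3, a membrane protein that binds Unc5 receptors and latrophilins, rose by 0.93 (SE 0.0599, limma adjusted p = 5.3e-05), from 10.16 ± 0.089 to 11.09 ± 0.065 (SD, n = 4 each), and passed under all 17 alternatives. Flrt2, also a ligand of Unc5 receptors, rose by 0.25, and Neo1, which encodes neogenin, a receptor related to Dcc, by 0.24. L1cam, an axonal adhesion molecule that takes part in Sema3a signalling, fell by 0.44 (limma adjusted p = 0.01), but with its probe sets averaged it was −0.22 and did not pass (0.079). Flrt2 lost its call without controls 1, 2 or 4 or mutants 1, 2 or 4 (0.22 to 0.24). Neo1 lost it without any control or without mutants 1, 2 or 3 (0.20 to 0.27). Of this list 2 genes passed without control 1, control 2, control 4, mutant 1 or mutant 2.

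Of 31 measured effectors that act inside the cell, 4 rose and 1 fell (median log2 change 0.05). That is 16.1% of them, against 9.72% over all genes in the same fit. The 17.4% with dim genes left out comes from another fit, in which more of these effectors passed (count in the last section). Farp2, which activates Rac downstream of plexin A, rose by 0.45, Mical3, of the oxidoreductase family that acts on actin, by 0.28, and Dpysl4, of the collapsin response mediators, by 0.25. The tyrosine kinase gene Abl1 rose by 0.18 and Fyn, a kinase of the Src family, fell by 0.26. With the s_at and x_at sets left out Farp2 was 0.13 (limma adjusted p = 0.461). Fyn did not pass without controls 1 and 3 together (−0.22, 0.0735). Abl1 lost its call in all 8 fits that omit 1 array (0.16 to 0.20). Among the 8 fits that omit 1 array, Dpysl4 passed in those without control 4 or mutant 4, and Mical3 in those without control 4 or mutant 2. The count of effectors called was 2 without control 2 or mutant 3, and 3 without control 3, mutant 1, mutant 2 or mutant 4.

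Markers of several cell types were read on the same arrays, and which of those cells carry the guidance genes was not measured. Over all genes 9.72% passed, with a median log2 change of −0.01. In a bulk sample fewer cells of a type and less RNA per cell cannot be told apart. Of 11 neuronal markers 6 fell and 2 rose. With or without a call, 8 of the 11 were lower, with a median log2 change of −0.42 and a range from −1.95 to 1.63. Their summed signal (log2 of the sum of linear values), which the brightest markers dominate, was 11.57 to 11.78 on controls and 11.64 to 11.94 on mutants. The sum therefore does not show the direction of most of these markers. Of 5 Schwann and glial markers 3 fell and all 5 were lower (median log2 change −0.35), with a summed signal of 11.34 to 11.68 against 10.93 to 11.33. Of 9 endothelial markers 2 rose and 8 were higher (median log2 change 0.33), with 11.23 to 11.39 against 11.49 to 11.83. Of 8 differentiated muscle markers 5 fell and all 8 were lower (median log2 change −0.71), with 15.06 to 15.31 against 14.24 to 14.60. Thus glial and muscle sums were lower, and the endothelial sum higher, on every mutant array than on any control.

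Of 7 macrophage markers 2 fell and all 7 were lower (median log2 change −0.28), with summed signals of 11.08 to 11.17 against 10.45 to 11.00, again without overlap. Of 8 epithelial markers 1 fell and all 8 were lower (median log2 change −0.25), with 13.56 to 13.88 against 13.36 to 13.82. Of 8 neural crest mesenchyme markers 1 rose and 1 fell, with 13.75 to 13.92 against 13.82 to 14.00. No erythroid marker of 4 passed in limma, and 0 had an unadjusted p under 0.05 (summed signal 14.59 to 14.76 against 14.56 to 14.72). Values on this array have no true 0, so no marker can be called absent. The part of these markers in the changes of Plxnd1, Unc5b, Epha5, Slit2 and the class 3 semaphorins was not tested.

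**Figure D4:**
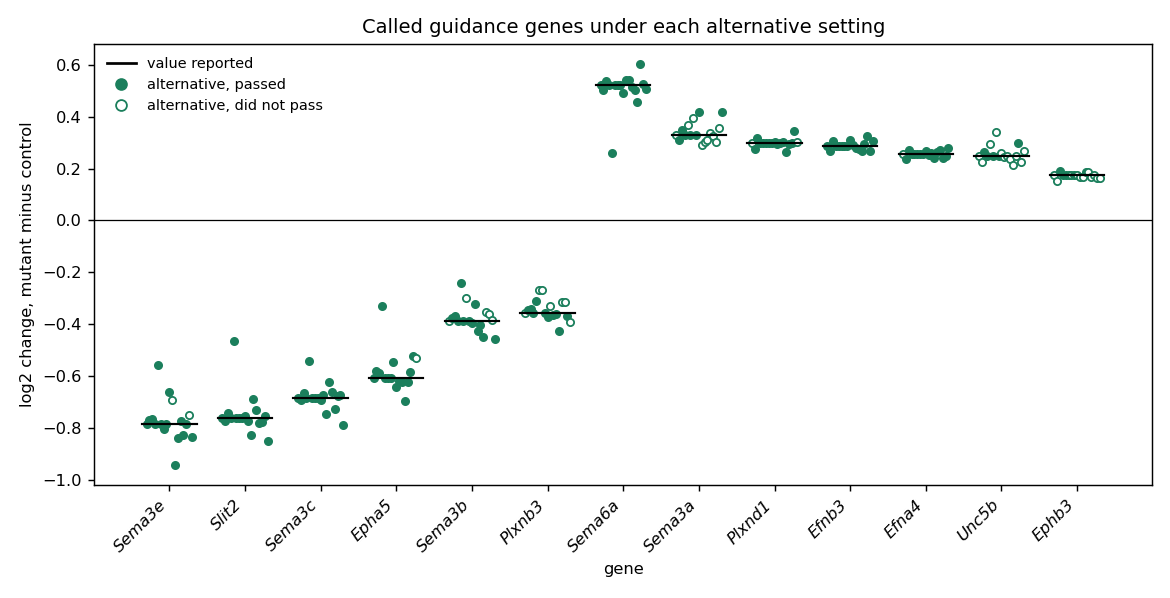
The log2 change (y axis, mutant minus control) of the 13 called guidance genes, in the fit reported (black line) and under up to 17 alternatives (points). Filled points passed an adjusted p of 0.05 and open ones did not; Slit2, Sema3c, Sema6a and Efnb3 passed in all 17.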

How the data were processed

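Total RNA of 8 tongue buds was labelled as biotin cRNA for Affymetrix arrays, per the labels' protocols. The authors deposited 1 log2 value for each probe set and array. The submitters' processing notes name RMA; for its version and settings, the sources used here give nothing. RMA aligns the distributions of the arrays, which can take away a shift shared by many genes. No genome build is named for the arrays.

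Of 45101 probe sets, 34945 named 1 gene in the platform annotation. The brightest set per gene entered limma 3.58.1 (R 4.3.3; lmFit and eBayes, two-sided, all 18193 genes, no filter), with Benjamini-Hochberg adjustment and calls at 0.05. Intervals are 95% from the same fit. The number of arrays limits precision. The procedure was tested on simulated data. All 67 genes could be named, and values on each array are given for called ones. Other guidance genes are named where called. Members, lists and tests were chosen with earlier results of these data known. Alternatives covered normalization, probe set choice, dim genes, moderation, replicate block and arrays left out. Promoters came from RefSeq (GRCm38.p6), matched by symbol for 57 of 67 genes.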

Additional observations from a re-analysis of the deposited data

Results flagged for a closer look

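In 6 of 134 groups of 4 arrays, 1 array stood apart from the other 3 by more than Dixon's 95% critical value for the gap as a share of the group's range; chance flags about 1 in 20 groups. Sema3a was 10.15 on control 1 against 9.77 to 9.83 on the other controls. Ephb4 was 8.75 on control 4 against 8.61 to 8.62, and Unc5a was 6.95 on control 2 against 6.51 to 6.58. On mutant 3, Sema7a was 6.69 against 6.95 or more on the other mutants, Nrp2 was 9.97 against 10.30 to 10.36 and Efna1 was 8.12 against 8.33 to 8.35.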

How the results depend on the processing

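None of the 13 called guidance genes reversed direction in any of the 17 alternatives. Of 220 values of the 13 called genes under them, 169 stayed past the threshold and 51 did not; Slit2, Sema3c, Sema6a and Efnb3 kept their calls throughout, and 8 genes not called passed somewhere (15 values). With 1 array left out, 8 to 15 guidance genes passed, 4 to 7 higher and 4 to 8 lower. The replicate block left 6 called, of which 2 were higher and 4 lower. Efna4, Plxnd1, Plxnb3, Sema3b, Unc5b, Ephb3 and Sema3a lost their calls under it. Over all genes the block left 966 calls against 1768 in the reported fit, and with 1 array left out that number was 1143 to 1583. Deviations of same-numbered samples were opposed or nearly unrelated (correlations of −0.40, 0.02, −0.18 and −0.16), so the numbers are not taken as pairs. Some probe sets of different genes shared a pattern over the arrays. Epha4 1439757_s_at read 9.44, 7.98, 6.91 and 5.89 on controls and 6.62, 7.25, 8.70 and 8.34 on mutants. Sema3a 1420417_at read 6.84, 5.22, 5.04 and 4.55 against 4.91, 5.51, 6.81 and 6.00. The brightest set of Sema5a kept the same order. What this pattern reflects was not tested. With the probe set of highest variance 4 guidance genes were higher and 5 lower. Epha5 could not be tested with dim genes left out. Of the effectors inside the cell 10 passed with dim genes left out, 1 under the block and 2 to 4 with 1 array left out, and of the other guidance genes 2 to 3 did with 1 array left out. The causes were not tested. Signals below the array medians, as for Epha5, Robo2 and Dcc, limit what can be seen, and 9 of the 67 genes had both means there.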
